A study of Mus musculus with 6 samples.

Results

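Genes of DNA replication and S phase were read on arrays of fetal mouse ovaries at E15.5, a stage counted in days of embryonic life. The set holds 43 genes, named by symbol from textbook roles in origin licensing, the replicative helicase, the polymerases, lagging strand synthesis, nucleotide supply and the G1 to S transition, out of 18193 genes that single-gene probe sets name on the array. A probe set is a group of short array probes for a transcript, and each gene was read through its brightest probe set by mean over the 6 arrays. All 43 genes passed the filter on dim signal. The 3 knockout samples are labelled as a knockout of Dmrt1, a DM domain transcription factor of gonads and germ cells, removed conditionally. The 3 control samples are labelled wild type and share the tissue and age. The Cre line, the cells in which Dmrt1 was removed, the strain, and the number of embryos behind a sample are not given in the sources used here. Replicates are numbered 1 to 3 in each group by the sample descriptions, with no mention of separate animals. The sample titles number the wild-type samples otherwise, and no label states a pairing. The error behind each p-value is that among these 3 arrays a group and may be technical in part. Knockout replicate 1 differed from the other knockout arrays in the RNA Xist, as given below, so it was no technical repeat of them. Differences are knockout minus wild type on the log2 scale, each with limma's standard error after the ± sign.

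DNA is copied from origins that the origin recognition complex marks. In G1 phase, CDC6 and CDT1 load the ring of MCM2 to MCM7 at these origins, and geminin then blocks CDT1 so that each origin fires once per cycle. CDC45 and the GINS complex turn the ring into an active helicase, after which primase, the polymerases, the sliding clamp PCNA and its loader RFC make the new strands. Cyclin D and cyclin E kinases release E2F factors, which drive many of these genes. In the fetal ovary, germ cells copy their DNA a last time before meiotic prophase, while somatic cells go on dividing by mitosis. A whole ovary holds both, so more cells of a type and more RNA per cell cannot be told apart in these values.

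On the E15.5 arrays, many genes that load and drive the replicative helicase read higher in knockout. All 3 licensing genes and 8 of 12 helicase and activator genes read higher on every knockout array than on any wild-type array. Their differences were 0.26 to 0.56 log2 units, and 12.3% of all tested genes showed this pattern. Plain probe sets are those not marked as able to match several transcripts. On these alone the helicase count was 4 of 11 (36.4%), beside 14 of 39 (35.9%) for the whole set and 11.4% of all genes so read. Mcm3 and Cdt1 rose past the threshold (a limma adjusted p under 0.05 over all 22040 tested probe sets), and 0 of the 43 genes fell. Pcna, Rrm2, Fen1, Orc2 and Orc4 had differences of at most 0.08 on their brightest probe sets, and cyclin D1 and D2 had negative differences that did not pass. The differences are modest, with the highest fold at 1.48 for Mcm3.

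Promoter sequences are shown first for the members whose groups lay apart, because the E2F factors named above act through short words in such promoters. The reference is RefSeq on GRCm38.p6, in windows of 300 bases that run from 250 before to 50 after an annotated start of a gene. These held 32 of the 43 members, in 40 windows, as a gene can have more than 1 start. The words searched were TTTCGCGC, TTTGGCGC, TTTCCCGC and TTTGCCGC on both strands, and words on opposite strands can share bases. At least 1 word was found for 13 of the 32 members (40.6%), against 2.60% of all 27025 genes in the table. It was found for 8 of the 15 members with a window whose arrays did not overlap between groups, and for 5 of the other 17. A match describes the letters in a window and is not evidence of binding, and no factor's binding was measured here. In the stretches below, written 5′ to 3′ on the gene's strand, the found words are in capitals and positions count from the window's own start at 1. Lig1 and Mcm7 have further windows at other starts, which held 0 words.
Cdc6 (chr11:98908002-98908031, plus strand, -149 to -120): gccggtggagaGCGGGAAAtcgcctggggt
Cdt1 (chr8:122568035-122568064, plus strand, 21 to 50): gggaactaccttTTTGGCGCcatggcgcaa
Mcm3 (chr1:20820275-20820304, minus strand, 9 to 38): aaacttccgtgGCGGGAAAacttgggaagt
Mcm5 (chr8:75109347-75109376, plus strand, -162 to -133): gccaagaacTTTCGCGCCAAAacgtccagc
Mcm7 (chr5:138171849-138171878, minus strand, 6 to 35): gggtgacgacgTTTCGCGCcaatttcggtt
Rfc3 (chr5:151651200-151651229, minus strand, -21 to 9): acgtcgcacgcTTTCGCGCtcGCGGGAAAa
Lig1 (chr7:13278841-13278870, plus strand, 16 to 45): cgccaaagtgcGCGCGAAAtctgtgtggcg

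Mcm6 held 3 words in the 120 bases before its start, a pair of them overlapping, and this longer stretch is shown for that arrangement.
Mcm6 (chr1:128359706-128359825, minus strand, -120 to -1): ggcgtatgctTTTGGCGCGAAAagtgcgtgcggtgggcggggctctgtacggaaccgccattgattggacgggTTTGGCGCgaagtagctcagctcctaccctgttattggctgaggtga
CCAAT on either strand was found for 20 of the 32 members (62.5%), against 41.1% of all genes in the table. Mcm3 held 3 such words in the 120 bases before its start, marked in capitals here.
Mcm3 (chr1:20820313-20820432, minus strand, -120 to -1): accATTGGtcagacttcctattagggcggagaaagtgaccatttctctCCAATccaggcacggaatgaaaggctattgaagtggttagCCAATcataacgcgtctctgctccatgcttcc

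Correlations between arrays ran from 0.994 to 0.996 inside a group and from 0.988 to 0.991 across the groups. The germ cell helicase Ddx4 read log2 10.18 to 11.03 and the granulosa factor Foxl2 log2 7.01 to 8.23 across the 6 arrays, so both main cell types of the labelled tissue were represented. Knockout replicate 1 stood apart in Xist, the RNA that silences an X chromosome in female cells, with a mean log2 of 1.81 over 3 probe sets against 9.75 to 10.91 on the other 5 arrays. Counts are therefore also given without that array. The median difference over all 11897 tested genes was 0.02 log2 units.

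Across the set, 36 of 43 genes had a positive difference (83.7%), against 53.4% of all tested genes. In 19 of the 43 (44.2%) all 3 knockout arrays lay above all 3 wild-type arrays, a pattern shown by 12.3% of all tested genes. The reverse pattern was shown by 0 members and by 11.4% of all tested genes. The limma test called 2 of the 43 higher, where 1.28% of all genes were called higher, and 0 lower, where 2.27% were called lower. At an unadjusted p under 0.05 the members numbered 16 higher and 0 lower, against 8.12% and 9.33% of all genes. The median difference of the 43 was 0.19 log2 units. Without knockout replicate 1, the groups lay apart in 19 of 43 members and in 17.1% of all genes, the median was 0.21, 30 members were positive, and 0 passed the threshold as higher, while Ccnd1 passed as lower. The members were proposed with results of these data in view, so these counts describe the set and are no independent test of it.

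**Figure D1:**
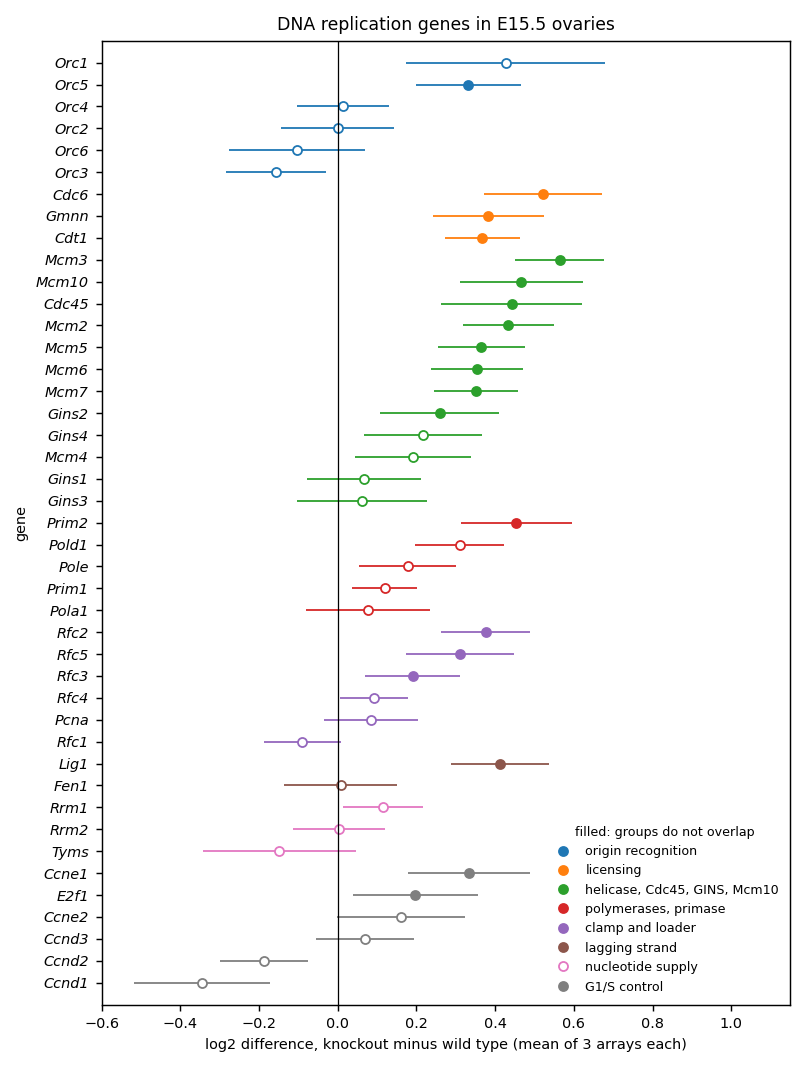
Log2 difference between the knockout and wild-type means of each of the 43 genes, with limma's standard error as the bar, n = 3 arrays per group; colours are roles, and filled points are genes whose 3 knockout and 3 wild-type arrays do not overlap. The 19 filled points all lie to the right of 0, and 7 open points lie to its left.

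**Figure D2:**
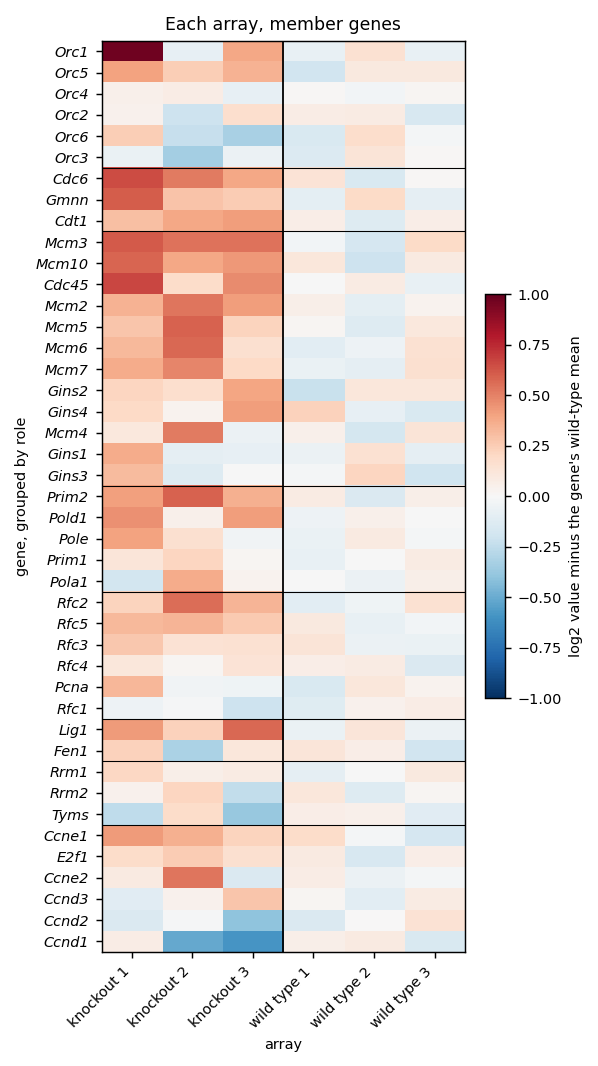
Log2 value of each gene on each array minus that gene's wild-type mean, with rows grouped by role, red above and blue below that mean. Licensing and most helicase rows are red on all 3 knockout arrays, while knockout replicates 2 and 3 are blue for Ccnd1.

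The licensing factors come first in the order of the process. Cdc6, the ATPase that joins the origin recognition complex to load MCM rings, read log2 8.77, 8.64 and 8.50 in knockout and 8.25, 7.96 and 8.13 in wild type, in each case in the order of replicates 1, 2 and 3, as in the sentences that follow. Every knockout value lay above every wild-type value, at a difference of 0.52 ± 0.15, and the gene did not pass (limma adjusted p = 0.0722). Cdt1, the partner of CDC6 in loading, read log2 11.46, 11.55 and 11.57 in knockout and 11.22, 11.03 and 11.22 in wild type. It rose 1.29-fold (0.37 ± 0.10, limma adjusted p = 0.0486). This call sat just under the threshold and held in 4 of 17 alternative analyses, and it ended on leaving out any 1 of the 6 arrays (limma adjusted p from 0.0453 to 0.226 over the 17). A second Cdt1 probe set differed by a like amount, 0.38 ± 0.17, with groups apart, and did not pass (limma adjusted p = 0.225). Gmnn, which encodes geminin, the inhibitor of CDT1, read log2 10.32, 9.998 and 9.96 in knockout and 9.61, 9.90 and 9.62 in wild type. Its groups lay apart by 0.064 log2 units, and the difference of 0.38 ± 0.14 did not pass (limma adjusted p = 0.155). The factor that loads the helicase and the factor that blocks loading thus both read higher in knockout.

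Among the 6 genes of the origin recognition complex, which binds DNA at origins, 0 passed, 3 had a positive difference and the median difference was 0.01. Orc5 alone had groups that did not overlap, with log2 9.67, 9.52 and 9.62 in knockout and 9.08, 9.37 and 9.37 in wild type. Its difference was 0.33 ± 0.13 (limma adjusted p = 0.192). Orc1, the subunit whose level cycles in many cells, was uneven in knockout, at log2 6.84, 5.79 and 6.26 against 5.79, 6.02 and 5.797 in wild type. Knockout replicate 1 lay above all other arrays there and knockout replicate 2 just below the wild-type range, and the difference of 0.43 ± 0.25 did not pass (limma adjusted p = 0.385). Orc2, Orc3, Orc4 and Orc6 differed by 0.00, -0.16, 0.01 and -0.10. One further probe set of Orc4 read higher on every knockout array, at 0.78 ± 0.22 (limma adjusted p = 0.0639), while the other 2 tested Orc4 probe sets differed by -0.01 and -0.12.

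The MCM2 to MCM7 ring is the motor that opens the double helix. All 6 of its genes had a positive difference, and Mcm3 passed the test. On the brightest probe set 5 of the 6 had groups apart and higher in knockout, as did 12.3% of all tested genes. On plain probe sets the groups lay apart in Mcm2 and Mcm3 alone of 5 genes, those of Mcm5 and Mcm6 overlapped, and Mcm7 had no such probe set. Mcm3 read log2 11.18, 11.11 and 11.11 in knockout and 10.55, 10.41 and 10.77 in wild type. The lowest knockout array lay 0.35 log2 units above the highest wild-type array. It rose 1.48-fold (0.56 ± 0.11, limma adjusted p = 0.0151), and 3 of its 5 tested probe sets passed. The other 2 of those 3 rose by 0.62 ± 0.14 (limma adjusted p = 0.0285) and 0.51 ± 0.12 (0.0376). Another differed by 0.52 ± 0.15 with groups apart (0.0728), and the dimmest, at log2 4.37 to 5.55, differed by -0.11 ± 0.28 (0.869). The Mcm3 call ended without knockout replicate 1 (limma adjusted p = 0.0534), wild-type replicate 1 (0.0677) or wild-type replicate 2 (0.0844), with the gene's probe sets averaged (0.105) and with the replicate number as a block (0.0503).

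Mcm2 read log2 10.13, 10.32 and 10.20 in knockout and 9.84, 9.68 and 9.82 in wild type. The groups lay 0.29 log2 units apart at the nearest pair of arrays, and the difference of 0.43 ± 0.12 missed the threshold (limma adjusted p = 0.053). A second, dimmer Mcm2 probe set read log2 7.91, 7.10 and 7.68 against 6.88, 6.84 and 6.34, a difference of 0.88 ± 0.24 (limma adjusted p = 0.0594). With probe sets that can match several transcripts left out, this one stood for the gene and passed (0.0437), and the average of both passed as well (0.0384).

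Mcm5, Mcm6 and Mcm7 were each highest on knockout replicate 2. Mcm5 read log2 12.18, 12.49 and 12.12 in knockout and 11.92, 11.77 and 12.01 in wild type (0.36 ± 0.11, limma adjusted p = 0.087). Mcm6 read log2 12.13, 12.38 and 11.97 against 11.70, 11.75 and 11.96 (0.35 ± 0.12, limma adjusted p = 0.113), with 0.006 log2 units between the nearest arrays. Mcm7 read log2 11.88, 12.00 and 11.71 against 11.44, 11.42 and 11.67 (0.35 ± 0.11, limma adjusted p = 0.0887). None of the 3 passed. All 3, and Mcm4, were read through probe sets of the kind, marked x, that can cross-match other transcripts. Of the 9 members read through such probe sets, 6 were highest among knockout arrays on replicate 2, and so were 54.5% of all 616 genes read through them, against 34.9% of the other genes. On replicate 2 the median departure from the wild-type mean was 0.49 over those 9 members and 0.04 over the 23 members read through plain probe sets. Over those 23 it was 0.21 on knockout replicate 1 and 0.08 on knockout replicate 3. On wild-type replicates 1, 2 and 3 it was -0.02, 0.08 and -0.02. Knockout replicate 1 was the highest knockout array for 11 of the 23, and for 28.3% of all genes not read through kind x. The part of these array patterns in the differences was not tested. Through plain or other probe sets, Mcm5 differed by 0.28 ± 0.13 and 0.13 ± 0.22, Mcm6 by 0.18 ± 0.10, and Mcm7 by 0.35 ± 0.12, 0.48 ± 0.14 and 0.09 ± 0.15. All were positive. Groups overlapped on these probe sets of Mcm5 and Mcm6 and on the last of Mcm7, and lay apart on the other 2 of Mcm7. Without any probe sets of the kinds that can match several transcripts, 14 of 39 members (35.9%) had groups apart, against 11.4% of all genes so read.

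Mcm4 was the member of the ring whose groups overlapped. It read log2 11.51, 11.92 and 11.35 in knockout and 11.46, 11.22 and 11.53 in wild type. Its difference was 0.19 ± 0.15 (limma adjusted p = 0.519), and a second one differed by 0.09 ± 0.13. Whether Mcm4 differed less than its ring partners was not tested.

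**Figure D3:**
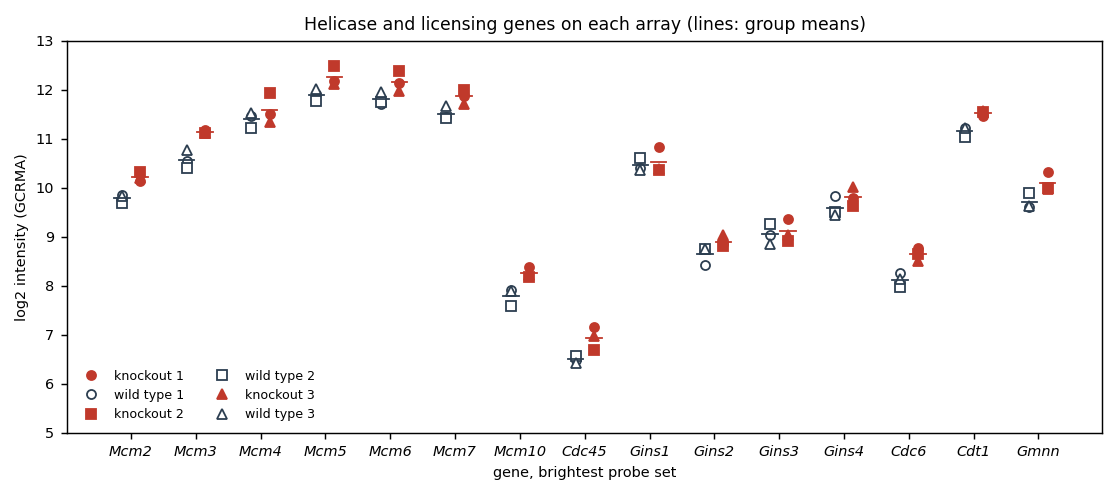
Log2 intensity of the helicase and licensing genes on each array, wild type at left in open and knockout at right in filled symbols, with a short line at each group mean; heights of different genes depend on their probes and are not compared. Of the 15 genes, the groups overlap in Mcm4, Gins1, Gins3 and Gins4.

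**Figure D4:**
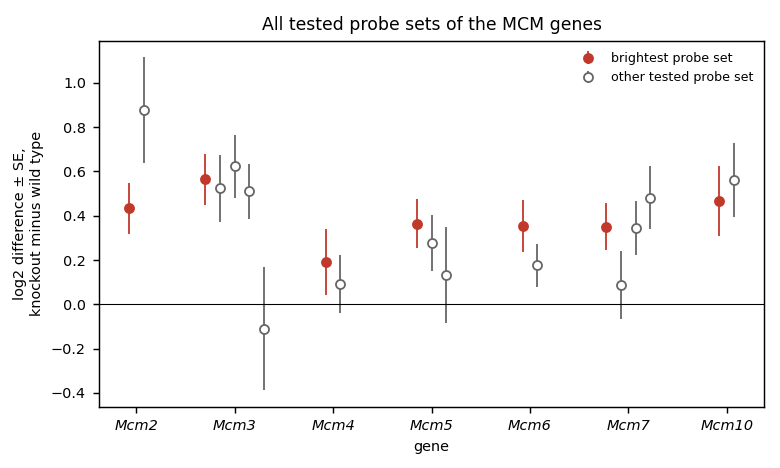
Log2 difference of every tested probe set of the MCM genes, with limma's standard error, the brightest probe set of each gene in red. All points but the dimmest Mcm3 probe set lie above 0.

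The factors that join or activate the ring were less even. Mcm10, which helps start the fork, read log2 8.37, 8.17 and 8.22 in knockout and 7.90, 7.58 and 7.88 in wild type, with 0.27 log2 units between the nearest arrays. The difference was 0.47 ± 0.16 (limma adjusted p = 0.119), and a second probe set differed by 0.56 ± 0.17 with groups apart (0.0803). Cdc45, an essential partner of the active helicase, read log2 7.16, 6.68 and 6.97 against 6.49, 6.57 and 6.42. It was highest on knockout replicate 1, and the difference of 0.44 ± 0.18 did not pass (limma adjusted p = 0.194). In the GINS complex, which clamps CDC45 to the ring, 0 of 4 genes passed. Gins2 read log2 8.86, 8.81 and 9.04 against 8.42, 8.75 and 8.75, which put the groups 0.051 apart (0.26 ± 0.15, limma adjusted p = 0.375), while on its plain probe set they overlapped (0.20 ± 0.17). Gins1, Gins3 and Gins4 differed by 0.07, 0.06 and 0.22 with overlapping groups.

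Of the 5 polymerase and primase genes, all had a positive difference and 0 passed. Prim2, the large subunit of the primase that lays down RNA primers, read log2 8.96, 9.14 and 8.91 in knockout and 8.64, 8.41 and 8.61 in wild type. Its groups lay apart, at 0.45 ± 0.14 (limma adjusted p = 0.093), while on its plain tested probe set they overlapped (0.25 ± 0.19). The small subunit Prim1 differed by 0.12 ± 0.08 with groups that overlapped. Pold1, the catalytic subunit of the lagging strand polymerase, read log2 12.09, 11.69 and 12.06 against 11.58, 11.69 and 11.64. Knockout replicate 2 alone fell within the wild-type range, at 11.6886 beside a highest wild-type value of 11.6892. The difference on this probe set, of kind x, was 0.31 ± 0.11 (limma adjusted p = 0.151), and without knockout replicate 2 it was 0.44 and passed (0.0122). The plain probe set of Pold1 differed by 0.42 ± 0.17 with groups apart (0.198). Pole, the leading strand polymerase, differed by 0.18 ± 0.12. Pola1, the polymerase that works with primase and the set's X-linked gene, differed by 0.08 ± 0.16 and read log2 8.99 on the knockout array without Xist signal, the lowest of the 6 arrays.

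PCNA is the ring that tethers polymerases to DNA, and RFC is the complex that opens and loads it. Pcna itself read log2 12.25, 11.88 and 11.87 in knockout and 11.77, 12.03 and 11.95 in wild type, groups that overlapped (0.08 ± 0.12, limma adjusted p = 0.747). On the brightest probe sets, groups lay apart in Rfc2, Rfc3 and Rfc5 and overlapped in Rfc1 and Rfc4. Rfc2 read log2 11.48, 11.82 and 11.60 against 11.15, 11.21 and 11.41 (0.38 ± 0.11, limma adjusted p = 0.0869), through a probe set of kind x. The other 2 Rfc2 probe sets differed by 0.25 ± 0.15 and 0.28 ± 0.16 with groups that overlapped. Rfc5 read log2 8.53, 8.55 and 8.47 against 8.31, 8.14 and 8.19 (0.31 ± 0.14, limma adjusted p = 0.232). Rfc5 thus had a narrow spread in both groups, though the test across all probe sets did not call it. Rfc3 read log2 9.88, 9.75 and 9.76 against 9.74, 9.55 and 9.54, with 0.013 between the nearest arrays (0.19 ± 0.12, limma adjusted p = 0.417). Its other probe set had the opposite sign, at -0.20 ± 0.22, and overlapped. Rfc1, the large subunit, differed by -0.09 ± 0.10. Rfc4 differed by 0.09 ± 0.09, and its other probe set differed by 0.27 ± 0.09 with groups apart (limma adjusted p = 0.105).

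In lagging strand processing, groups lay apart in Lig1 and overlapped in Fen1, and whether the genes differed from each other was not tested. Lig1, the ligase that seals Okazaki fragments, read log2 10.52, 10.32 and 10.67 in knockout and 10.03, 10.21 and 10.03 in wild type. Its groups lay 0.11 apart, and the difference of 0.41 ± 0.12 did not pass (limma adjusted p = 0.0851) except without knockout replicate 2 (0.036). Fen1, the flap nuclease that acts before it, read log2 11.99, 11.45 and 11.87 against 11.88, 11.83 and 11.57, a difference of 0.01 ± 0.14. That probe set is of kind x, and the other tested one of Fen1 differed by 0.24 ± 0.16 with overlap (limma adjusted p = 0.452).

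Genes of nucleotide supply had overlapping groups on their brightest probe sets. Rrm1 and Rrm2, the subunits of ribonucleotide reductase, differed by 0.11 ± 0.10 and 0.00 ± 0.12. For Rrm2 this places the 3 knockout arrays, at log2 12.50, 12.67 and 12.21, around the wild-type arrays at 12.57, 12.33 and 12.47. That probe set is of kind x, and the plain ones of Rrm2 differed by 0.32 ± 0.23 with overlap and 0.37 ± 0.19 with groups apart, neither past the threshold (limma adjusted p = 0.488 and 0.308). A second Rrm1 probe set had the opposite sign, at -0.42 ± 0.26 with overlap. Tyms, the thymidylate synthase gene, was dim and differed by -0.15 ± 0.19.

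Of the 6 regulators of the G1 to S transition, 2 had groups apart and higher, beside 12.3% of all tested genes, and 0 passed. Cyclin E1, which drives S phase entry with CDK2, had groups apart, with Ccne1 at log2 8.35, 8.27 and 8.15 in knockout and 8.11, 7.90 and 7.75 in wild type (0.33 ± 0.16, limma adjusted p = 0.257). Its second probe set also had groups apart, at 0.42 ± 0.17 (limma adjusted p = 0.198). E2f1, an activating E2F factor, read log2 7.04, 7.11 and 7.02 against 6.95, 6.70 and 6.93, which put the groups 0.071 apart (0.20 ± 0.16, limma adjusted p = 0.541). Ccne2 differed by 0.16 ± 0.16 and was highest on knockout replicate 2, at log2 10.65. Of the D cyclins, which respond to growth signals in G1, Ccnd1 read log2 10.61, 10.02 and 9.94 in knockout and 10.59, 10.63 and 10.39 in wild type. Knockout replicates 2 and 3 lay below all wild-type arrays and knockout replicate 1 among them, and the difference of -0.34 ± 0.17 did not pass (limma adjusted p = 0.298). Without knockout replicate 1 it was -0.55 and passed (0.0448). The other 2 Ccnd1 probe sets differed by -0.11 and 0.55 and did not pass, so the probe sets of this gene did not share a sign. Ccnd2 differed by -0.19 ± 0.11 and Ccnd3 by 0.07 ± 0.12.

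Another 48 tested probe sets, from 29 of the member genes, gave a second reading of the same RNA. They are no further replicates. Of these, 35 had a positive difference and 37 had the sign of the gene's brightest probe set. In 14 all knockout arrays lay above all wild-type arrays, and in 0 all lay below. Over all tested genes, on their brightest probe sets, these patterns were shown by 12.3% and 11.4%. The 13 members with groups apart that had further probe sets accounted for 20 of the 48, with 18 positive and 10 with groups apart. Those 13 were picked by their brightest probe sets on the same arrays, so this agreement is no separate support.

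Other genes of replication and G1 to S control, listed by function in the same way, were read beside the set. Of 59 tested out of 65 listed, 3 rose, 1 fell and 55 did not pass, with a median difference of 0.15, beside 1.28% of all tested genes called higher and 2.27% called lower. In 14 (23.7%) all knockout arrays lay above all wild-type arrays, beside 12.3% of all genes, and in 3 (Mcmbp, Cdk6 and E2f7) all lay below, beside 11.4%. Tk1, the thymidine kinase of S phase, read log2 9.57, 9.47 and 9.43 in knockout and 9.12, 8.79 and 8.78 in wild type and rose 1.51-fold (0.59 ± 0.14, limma adjusted p = 0.0325). Rpa2, a subunit of the single-strand binding protein RPA, read log2 11.13, 10.95 and 10.95 against 10.56, 10.47 and 10.57 and rose 1.39-fold (0.48 ± 0.10, limma adjusted p = 0.0206). Cdkn2a, a locus of cell cycle inhibitors and 1 of the 3 called higher, was under the filter on all 3 wild-type arrays. It read log2 4.70, 4.57 and 4.54 in knockout, a fold of at least 1.52. It entered the test through its knockout arrays alone, so its call is not read as support for a rise. The product of Cdkn2a opposes S phase entry, unlike those of Tk1 and Rpa2.

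Mcmbp, which binds MCM subunits and helps take the ring off DNA, moved the other way from the ring genes. On the brighter of its 2 tested probe sets, it read log2 9.35, 9.38 and 9.24 in knockout and 9.75, 9.84 and 9.83 in wild type. There it fell by 0.48 ± 0.12 (limma adjusted p = 0.0364), and the other probe set is not shown. Mcmbp did not pass with its probe sets averaged, with the stricter filter or with the replicate number as a block. On leaving out 1 array, it passed only without knockout replicate 2. Wdhd1, a fork protein that links polymerase alpha to the helicase, differed by 0.68 ± 0.20 (limma adjusted p = 0.0722), and Cdk6, a kinase of the D cyclins, by -0.41 ± 0.12 (0.0822), both with groups apart. Without knockout replicate 1, without wild-type replicate 2 and without wild-type replicate 3, 0 of these other genes passed.

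**Figure D5:**
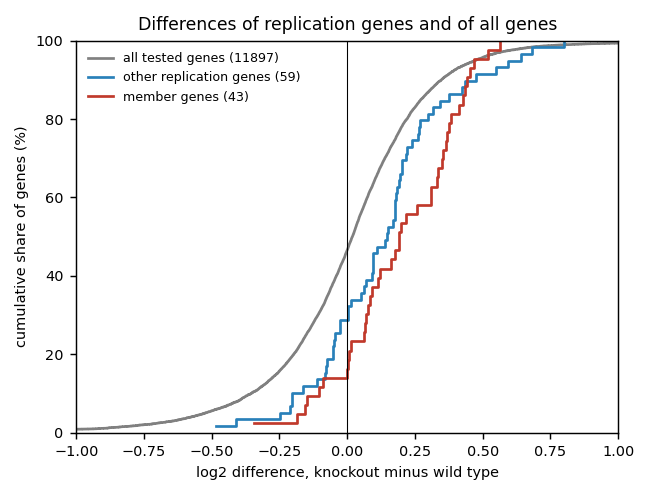
Cumulative share of genes against the log2 difference between knockout and wild type, for the 43 members, 59 other replication genes and all 11897 tested genes; 100 and 73 of all genes lie beyond the left and right ends of the axis. The member curve crosses 0 at a lower share of genes than the curve of all genes, with 7 of 43 members below 0.

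Marker lists of the ovary's cell types are given beside these values. Their sums did not overlap between groups for pregranulosa, stroma and endothelial markers and overlapped for germ cell, macrophage, erythroid, mitosis and meiotic markers. The summed intensity of the 43 replication genes ranged over 79318 to 86607 on knockout arrays against 74098 to 77157 on the wild-type arrays. Over 10 pregranulosa markers the sum was 11602 to 13058 against 10673 to 11132. Bright genes weigh most in a sum, and the brightest of these, Amhr2, was read through a probe set of kind x (0.25 ± 0.10). Of the 10, 7 had a positive difference and 3 a negative one (Foxl2, Wnt4 and Runx1). Groups lay apart in 4 as higher (12.3% of all tested genes) and in 1, Runx1, as lower (11.4%). Over 8 of 10 germ cell markers the sum was 12981 to 18893 against 11689 to 14675, with knockout replicate 1 highest. Stroma markers summed to 35454 to 37747 on knockout arrays against 40390 to 44454 over 10 genes, and 8 of 10 endothelial markers to 2406 to 2851 against 3249 to 3725. The macrophage sum was 3877 to 6275 against 5831 to 7206 over 10 genes, and that of 3 of 8 erythroid markers 332.1 to 489.0 against 485.1 to 1346. Kit and Tdrd1 of the germ cell list, Pecam1 and Cdh5 of the endothelial list and 5 erythroid genes were under the filter or not named by a single-gene probe set. Of the 8 germ cell markers tested, 6 had a positive difference and 2 a negative one (Tex101 and Taf4b), with a median of 0.35. Groups lay apart in 3 as higher (Ddx4, Dppa3 and Pou5f1) and in 0 as lower, beside 12.3% and 11.4% of all tested genes. Dppa3 alone passed, and it lay under the filter on 2 wild-type arrays. Groups lay apart as lower in 5 of 10 stroma, 5 of 8 endothelial, 4 of 10 macrophage and 1 of 3 erythroid markers, and as higher in 0 of these. Of the pregranulosa and stroma markers 0 passed, and 2 endothelial, 2 macrophage and 1 erythroid marker fell. The part of these shifts in the replication values was not tested.

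Markers of mitosis gave sums of 12568 to 13611 on knockout arrays against 12439 to 13430 over 11 of 12 genes. Of these, 0 passed, 8 had a positive difference and the median was 0.13. Mki67, a general marker of cycling cells, read log2 11.82, 11.83 and 11.95 in knockout and 12.17, 12.22 and 12.05 in wild type, lower on all 3 knockout arrays, and did not pass (limma adjusted p = 0.0832). Of the other mitosis markers 3 had groups apart and higher, a pattern shown by 12.3% of all tested genes, and none passed the threshold. Plk1, a mitotic kinase, differed by 0.67 ± 0.19 (limma adjusted p = 0.0656), Cdc20, an activator of the anaphase-promoting complex, by 0.35 ± 0.13 (0.151) and Birc5, which encodes survivin, by 0.08 ± 0.08 (0.66). Over 10 genes of meiotic prophase the sums were 12337 to 15608 and 12789 to 16477, and 0 passed. Groups lay apart in 1 as higher, Rec8 (1.64 ± 0.44), and in 1 as lower, Sycp2 (-0.41 ± 0.12), beside 12.3% and 11.4% of all tested genes.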

How the data were processed

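RNA of 3 knockout and 3 wild-type ovary samples was hybridised to Affymetrix arrays. The authors deposited 1 intensity per probe set and array on a linear scale, made with GCRMA per the submitters' processing notes, with version and settings not given in the sources used here. GCRMA presses dim values towards a floor, and the number of arrays limits the precision. Values were then put on the log2 scale. The array lists 45101 probe sets, from which 64 controls were left out, and the 22040 with log2 of at least 4 on at least 3 arrays made up the tests. Platform annotation, updated through RefSeq with 0 symbols changed, named 1 gene for 34945 probe sets, several for 932 and none for 9160.

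Knockout and wild type entered a limma 3.58.1 model run under R 4.3.3 (eBayes with an intensity trend, 2-sided) and Benjamini-Hochberg adjustment over all tested probe sets at 0.05. The fit was tested on simulated data. A gene under the filter on all arrays of a group gets a fold against the filter value. The members and lists were chosen with earlier results of these data known. Per-array values go to members past the threshold, with groups apart, or among the 6 largest differences; values of other members, of markers and of E2f7, were chosen after being seen. Of the other replication genes, those called and those with the smallest p, up to 6, were named. Alternatives were the filter, eBayes forms, array weights, a replicate block, normalization, centring, probe set choice, a pseudocount and leaving out each array; those of the non-overlap count were added after seeing the data. Pairs of identical arrays numbered 0.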

Additional observations from a re-analysis of the deposited data

How the results depend on the processing

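The median difference of the 43 genes stayed between 0.167 and 0.220 under every alternative run. The count of members with groups apart ran from 18 to 23 of 43, or 14 of 39 on plain probe sets alone (11.4% of all genes so read). The share of all tested genes with groups apart moved as well, from 12.3% in the main run to between 15.3% and 20.5% on leaving out 1 array. Groups with an array fewer separate more readily, so the highest counts, 22 and 23 without knockout replicates 2 and 3, are no sign of stability. The alternatives of the count with groups apart, and its split by role on plain probe sets, were chosen after seeing the data. Rrm2 moved from 0.00 to 0.32 on plain probe sets. The count of 2 members called higher was less stable. It was 1 with the stricter filter, without the eBayes trend, with robust eBayes, with quantile normalization and with all probe sets of a gene averaged, 4 with array weights, and 0 to 3 on leaving out 1 array, with 0 without knockout replicate 1, wild-type replicate 1 or wild-type replicate 2. The count called lower was 0 to 1 on leaving out 1 array. Over all genes 422 were called, against 727 with no filter, 248 with the stricter filter and 158 to 555 on leaving out 1 array. Of the other replication genes 4 were called, against 2 with the stricter filter and 0 to 5 on leaving out 1 array.

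Between arrays of equal replicate number, deviations from the group mean correlated at -0.165, -0.247 and -0.168. Such deviations cancel within each group, so these correlations balance and cannot settle whether samples were paired. No array correlated best with its own number: unlike numbers gave 0.328 (knockout 1, wild type 2), 0.336 (knockout 2, wild type 3) and 0.238 (knockout 3, wild type 1), and -0.148 to -0.082 in the other 3 pairs. With the replicate number as a block, 0 members passed (Mcm3 at a limma adjusted p of 0.0503), 0 other replication genes passed and 220 of all genes passed.

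Small differences changed sign. Orc2 was 0.019 with array weights, 0.0046 with quantile normalization and 0.010 with median centring. With quantile normalization Fen1 was -0.00475 and Rrm2 -0.021. With all probe sets of a gene averaged Rfc3 was -0.0060, Rrm1 -0.15 and Ccnd1 0.033, and on plain probe sets alone Orc4 was -0.0068. On leaving out 1 array, Orc2 ran from -0.083 to 0.11, Orc4 -0.017 to 0.061, Orc6 -0.28 to 0.0055, Gins1 -0.086 to 0.15, Gins3 -0.066 to 0.17, Pola1 -0.071 to 0.21, Pcna -0.042 to 0.15, Fen1 -0.10 to 0.17, Rrm2 -0.10 to 0.13, Ccnd3 -0.034 to 0.16 and Ccne2 -0.025 to 0.31. The arrays number 3 a group, which limits what any of these counts can resolve; the causes of the shifts were not tested.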
